A study of Mus musculus with 12 samples.

Results

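The comparison was between 28-2-200f and 28-2EV cells, both made from 28-2, a murine ovarian cancer line, and it was read across all genes in 6 of the 12 RNA sequencing libraries of the series, 3 for each group. The members were chosen by the cell line and vector in the sample labels, and no ID8 library entered any fit. 28-2-200f cells carried a lentivirus with the miR-200c/miR-141 cluster, marked by mCherry and hygromycin resistance, together with a lentivirus with the miR-200b/miR-200a/miR-429 cluster, marked by GFP and puromycin resistance, both clusters under a CMV promoter, and grew as 2D cultures in puromycin at 60 µg/ml and hygromycin at 1000 µg/ml. 28-2EV cells carried a control lentivirus with EGFP, puromycin resistance and mCherry and no miR-200 cluster, and grew as 2D cultures in puromycin at 30 µg/ml. The effects of the clusters, of the drugs and doses, and of a second infection cannot be told apart in this design, and whether each line was a clone or a pool of infected cells was not given in the sources used here. The study describes 3 independent samples per line, and p-values measure the spread between those samples. Values are CPM, the reads of a gene relative to its library's total, computed from the counts after TMM scaling of library sizes, and are given in the order of replicates 1, 2 and 3.

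The miR-200 family is a group of microRNAs that epithelial cells express and that most mesenchymal cells do not. They pair through the seed, bases 2 to 8, with sites in the 3′UTRs of messenger RNAs and lower the level or translation of those RNAs. Their best described targets are Zeb1 and Zeb2, transcription factors that repress E-cadherin and other epithelial genes during epithelial mesenchymal transition (EMT) and that in turn repress both miR-200 clusters. The 5 members fall into 2 seed groups that differ by a single base, and the mature 3p sequences (RefSeq, GRCm38.p6) are shown with the seed in capitals, since the seed defines the sites counted in the 3′UTRs. The miR-200b/miR-200a/miR-429 cluster lies on the minus strand of chromosome 4 and the miR-200c/miR-141 cluster on the minus strand of chromosome 6. The first 3 sequences share the seed AAUACUG and the other two share AACACUG.
mmu-miR-200b-3p: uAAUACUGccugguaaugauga
mmu-miR-200c-3p: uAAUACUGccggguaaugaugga
mmu-miR-429-3p: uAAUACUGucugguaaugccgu
mmu-miR-141-3p: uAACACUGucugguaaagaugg
mmu-miR-200a-3p: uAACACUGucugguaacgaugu
The genes of these 5 microRNAs had 0 counts in each of the 6 libraries. The read counts therefore gave no check of the vectors, and the groups rest on the labels.

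Total counts were 16716323 to 17746762 in 28-2-200f and 16390953 to 18015330 in 28-2EV, and 12679 of the 57010 listed genes had enough counts to be tested. The first principal component of log2 CPM held 56.7% of the variance and separated the groups, and the second held 25.1% and set 28-2EV replicate 2 (-64.1) against the other 5 libraries (-15.2 to 36.1). The SD of a library's log2 deviations from its group mean over these genes was 0.544 in 28-2EV replicate 2 and 0.268 to 0.417 in the others. Rn18s-rs5, a ribosomal RNA gene, had 15032, 37963 and 25508 CPM in 28-2-200f, against 4286, 3185 and 13364 CPM in 28-2EV.

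28-2EV replicate 2 stood apart in growth state. Its genes for DNA replication averaged 5.75, 6.38 and 6.51 in 28-2-200f, against 6.12, 6.78 and 5.64 in 28-2EV (mean log2 CPM of 41 genes). The 35 mitosis genes averaged 6.23, 6.97 and 7.13 in 28-2-200f, against 6.62, 7.27 and 6.31 in 28-2EV on the same scale. Replicate 2 had the highest level of both lists in 28-2EV, and 28-2-200f replicate 1 the lowest in its own group. The 24 interferon-stimulated genes tested averaged 2.43, 2.08 and 3.45 in 28-2-200f, against 1.504, 4.17 and 1.80 in 28-2EV, again highest in 28-2EV replicate 2. Of genes with a mean of at least 20 CPM, Kctd14 fell farthest below its replicates there, at 155, 31.7 and 14.2 CPM in 28-2-200f, against 98.1, 2.96 and 162 CPM in 28-2EV. Sprr1a, a cornified envelope precursor, lay farthest above them, at 25.1, 41.5 and 116 CPM in 28-2-200f, against 5.41, 148 and 13.0 CPM in 28-2EV. Both genes also differed among the 28-2-200f libraries, in opposite orders. Sema4g, a semaphorin, had 489.6, 404 and 350.4 CPM in 28-2-200f, against 527, 62.5 and 503 CPM in 28-2EV. Ccng2, a cyclin linked to growth arrest, had 37.2, 19.6 and 20.8 CPM in 28-2-200f, against 31.0, 4.04 and 37.9 CPM in 28-2EV. Both were lowest in 28-2EV replicate 2 and even in the other 28-2EV libraries. Ereg, an EGF receptor ligand, had 139, 142 and 148 CPM in 28-2-200f, against 14.6, 80.6 and 19.3 CPM in 28-2EV. Ankrd1, a target of the Hippo effector YAP, had 42.8, 56.5 and 106 CPM in 28-2-200f, against 24.1, 98.3 and 17.0 CPM in 28-2EV. These genes were picked for their gap in that library, so their values are a description. Most single genes below are given with their values in every library. Some genes with few counts in 1 group are given as counts summed over each group, and only some results are also given without 28-2EV replicate 2.

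**Figure D1:**
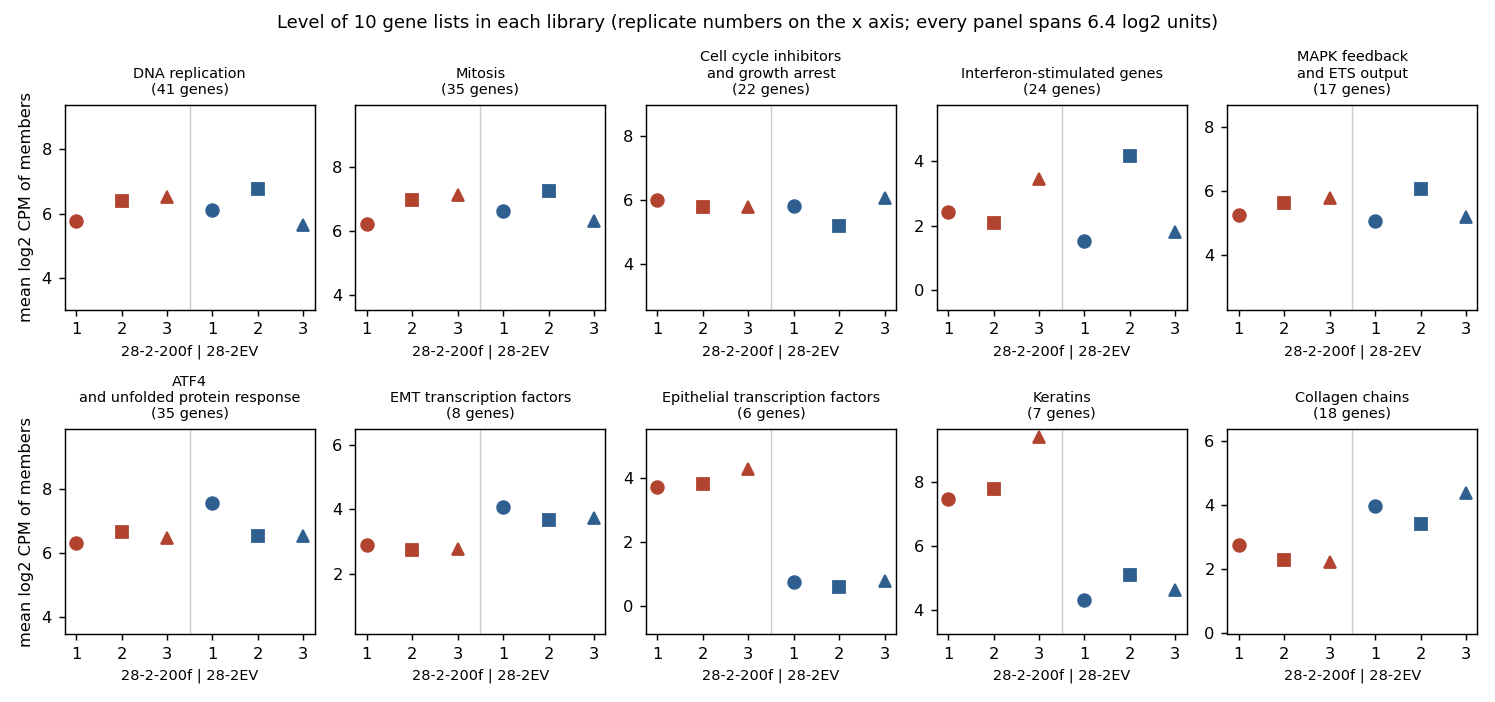
Mean log2 CPM of the tested members of 10 gene lists in each of the 6 libraries, 28-2-200f at the left of each panel and 28-2EV at the right, with the replicate number on the x axis. 28-2EV replicate 2 is the highest 28-2EV library for DNA replication (6.78) and mitosis (7.27). The epithelial transcription factor and keratin lists separate the groups without overlap on this scale, which covers tested members only. The summed CPM of all listed epithelial transcription factors overlapped, at 221, 254 and 333 in 28-2-200f, against 264, 159 and 193 in 28-2EV.

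Of the 12679 genes, 96 had both an FDR under 0.01 and a log2 fold change beyond 1 in either direction (0.757%), 65 higher (0.513%) and 31 lower (0.244%) in 28-2-200f (edgeR quasi-likelihood test with Benjamini-Hochberg adjustment). At an FDR under 0.05 alone 564 passed (4.45%), 287 higher (2.26%) and 277 lower (2.18%), and it is this rule by which "rose" and "fell" are used of single genes and by which gene lists are counted. The share of all genes, 4.45%, is the background for each list count below. The Notch, Hippo, polycomb, p53 target, apoptosis, NRF2 and glycolysis lists lay near it, with 3.45 to 7.14% of tested members passing. For comparison, the 3 libraries of 28-2-200f lay wholly above or wholly below those of 28-2EV in 26.2% of all genes tested (13.2% above and 13% below), and 9.62% were higher and 10.5% lower at an unadjusted p under 0.05. All 564 genes at an FDR under 0.05 had no overlap between groups. For a gene that passed, the absence of overlap is therefore a description and no further evidence. Of the 96 genes, 88 also passed without 28-2EV replicate 2, when 244 genes passed in all (1.87%), 108 higher (0.827%) and 136 lower (1.04%), and 71 held an FDR under 0.05 whichever library was left out. The larger count without that library went with a lower common biological coefficient of variation, 0.226 against 0.283 with all 6 libraries. The count was 11, 8 and 14 without 28-2-200f replicates 1, 2 and 3, and 8 and 19 without 28-2EV replicates 1 and 3. At an FDR under 0.05 alone it was 237, 98 and 232 without each 28-2-200f library, and 120, 1377 and 275 without each 28-2EV library, the 1377 being 10.5% of the genes then tested (660 higher, 5.06%, and 717 lower, 5.49%).

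**Figure D2:**
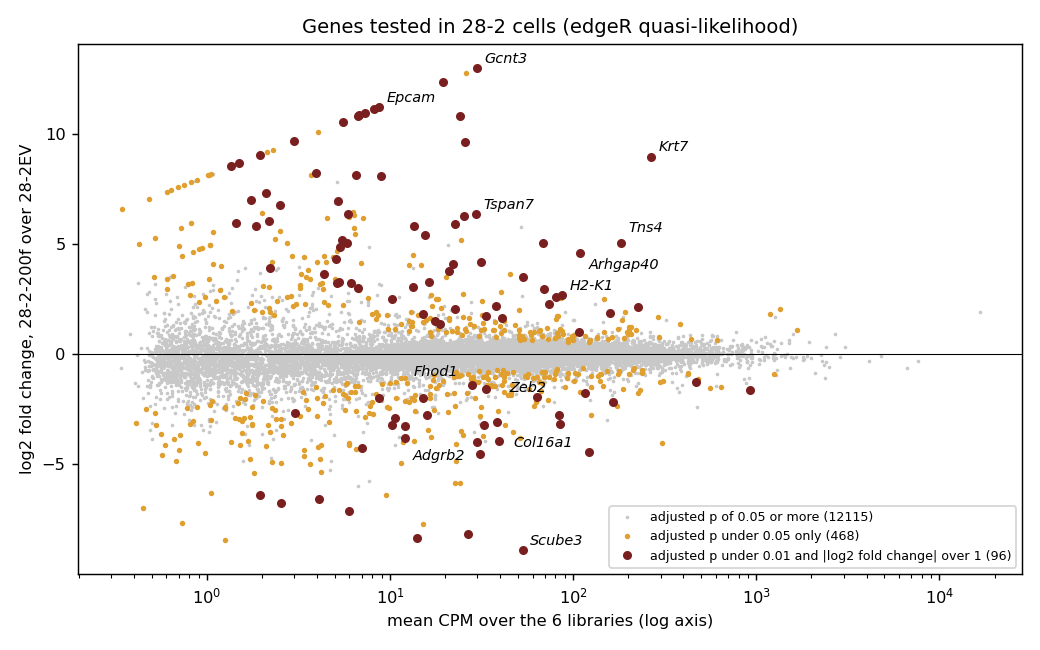
Fitted log2 fold change, 28-2-200f over 28-2EV, against mean CPM over the 6 libraries (log axis) for 12679 genes, with 12115 genes not called in grey, 468 at an FDR under 0.05 only and 96 past both thresholds in stronger colours. The largest fitted values at the top belong to genes with 0 counts in every 28-2EV library, whose fitted size is no measured fold.

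Only 5 genes passed both thresholds in the full fit and in all 6 fits that left out 1 library, and their replicates were close together. Tns4, tensin 4, a focal adhesion protein, had 356, 348 and 356 CPM in 28-2-200f, against 10.6, 8.54 and 12.5 CPM in 28-2EV (log2 fold change 5.06, SE 0.19, adjusted p = 0.000186). Arhgap40, a GTPase-activating protein, had 216, 205 and 205 CPM in 28-2-200f, against 10.9, 8.59 and 5.82 CPM in 28-2EV (log2 fold change 4.62, SE 0.25, adjusted p = 0.000477). Both were nearly constant across the 28-2-200f libraries and far above every 28-2EV library. Tspan7, an X-linked tetraspanin, had 52.9, 48.2 and 74.4 CPM in 28-2-200f, against 0.758, 0.740 and 0.600 CPM in 28-2EV (log2 fold change 6.37, SE 0.27, adjusted p = 0.000213). Scube3, a secreted glycoprotein with EGF-like and CUB domains, had 0.336, 0.123 and 0.178 CPM in 28-2-200f, against 73.1, 131 and 114 CPM in 28-2EV (log2 fold change -8.89, SE 0.40, adjusted p = 0.000213). Adgrb2, an adhesion G protein-coupled receptor, had 3.14, 3.88 and 3.68 CPM in 28-2-200f, against 66.3, 57.4 and 45.7 CPM in 28-2EV (log2 fold change -3.98, SE 0.22, adjusted p = 0.000477). Scube3 was thus near the detection limit in all 3 28-2-200f libraries and among the well expressed genes of 28-2EV, and Tspan7 showed the opposite arrangement.

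Of the EMT transcription factors, 3 of 8 tested genes fell and 0 rose, and the median log2 fold change was -0.89, against -0.01 over all genes tested. Zeb2 had 25.3, 19.2 and 15.6 CPM in 28-2-200f, against 51.0, 62.4 and 50.6 CPM in 28-2EV (log2 fold change -1.45, SE 0.21, adjusted p = 0.0146). Zeb1 had 11.6, 13.7 and 10.4 CPM in 28-2-200f, against 25.3, 20.3 and 23.2 CPM in 28-2EV (log2 fold change -0.94, SE 0.19, adjusted p = 0.0402). For both, every 28-2-200f library was lower than every 28-2EV library, and the mean level of Zeb2 was 20.003 ± 4.89 CPM in 28-2-200f and 54.7 ± 6.68 CPM in 28-2EV (SD, n = 3 each). Twist2 was barely detected, with 2 counts over the 28-2-200f libraries and 69 over the 28-2EV libraries, a ratio of 33.4 (95% interval from counting error 8.89 to 281), 28-2EV over 28-2-200f. Snai1 had 1.62, 2.34 and 2.08 CPM in 28-2-200f, against 2.71, 6.32 and 2.22 CPM in 28-2EV (adjusted p = 0.349). Snai2 had 7.62, 7.95 and 9.07 CPM in 28-2-200f, against 28.3, 8.59 and 8.76 CPM in 28-2EV (adjusted p = 0.360), and its mean in 28-2EV was set by replicate 1. Neither gene of the Snail family passed the test, and Twist1 was listed at 0 counts in all 6 libraries. The count of EMT factors that fell was 0 without 28-2-200f replicate 2 or 28-2EV replicate 1 and 1 without 28-2-200f replicate 1 or 28-2EV replicate 3.

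Vim, vimentin, the intermediate filament of mesenchymal cells, had 1145, 1255 and 2091 CPM in 28-2-200f, against 2196, 3404 and 2409 CPM in 28-2EV (log2 fold change -0.83, SE 0.30, adjusted p = 0.176) and did not pass, and 28-2-200f replicate 3 lay just below the lowest 28-2EV library. Cdh1, E-cadherin, had 2.97, 4.68 and 1.54 CPM in 28-2-200f, against 0.812, 0.171 and 0.420 CPM in 28-2EV (log2 fold change 2.68, SE 0.65, adjusted p = 0.0657). It was higher in all 3 28-2-200f libraries at a low level and missed an FDR of 0.05 also without 28-2EV replicate 2 (adjusted p = 0.0614). Of 9 mesenchymal and contractile genes tested, only Pdgfra, a receptor for platelet-derived growth factor, passed, at 1.51, 1.66 and 2.37 CPM in 28-2-200f, against 12.8, 7.97 and 12.8 CPM in 28-2EV (adjusted p = 0.0105). Of the EMT-linked splicing regulators, Esrp2, an epithelial splicing factor, rose, with 70.4, 64.9 and 60.3 CPM in 28-2-200f, against 32.7, 37.2 and 37.0 CPM in 28-2EV (log2 fold change 0.87, SE 0.14, adjusted p = 0.0181). Rbfox2, a splicing factor of mesenchymal isoforms, fell, with 171, 155 and 155 CPM in 28-2-200f, against 269, 253 and 275 CPM in 28-2EV (log2 fold change -0.72, SE 0.13, adjusted p = 0.0240), and the others of 7 tested did not pass.

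Among 36 tested genes described as miR-200 targets, 4 fell and 0 rose, namely Fhod1, Zeb2, Tubb3 and Zeb1, and 26 of the 36 had a log2 fold change below 0 (median -0.19). Fhod1, a formin that bundles actin stress fibres, had 15.1, 14.9 and 16.1 CPM in 28-2-200f, against 39.5, 38.1 and 43.9 CPM in 28-2EV (log2 fold change -1.40, SE 0.15, adjusted p = 0.00588). Its 3 values in 28-2-200f lay close together, and its fall held an FDR under 0.05 in all 6 fits that left out a library. Tubb3, a beta tubulin, had 1.29, 1.11 and 0.534 CPM in 28-2-200f, against 13.7, 3.93 and 7.20 CPM in 28-2EV (adjusted p = 0.0278). The count of targets that fell was 1 without 28-2-200f replicate 2 or 28-2EV replicate 1, 2 without 28-2-200f replicate 1, 28-2-200f replicate 3 or 28-2EV replicate 3 and 7 without 28-2EV replicate 2. Of 28 targets with a seed match in the longest annotated 3′UTR, 22 had a fold change below 0 (median -0.20), and of 8 with no match 4 did (median -0.04).

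A match of the miR-200b/miR-200c/miR-429 seed reads CAGTATT in the RNA's own strand and that of the miR-200a/miR-141 seed CAGTGTT. Windows of 30 bases from 3′UTRs (GENCODE M21, GRCm38) are shown for Fhod1 and Zeb2, which with Zeb1 (3 such matches) are the described targets that fell with an 8-base match, and for 2 genes that fell and were not on the list of described targets, with CAGTATT and the following A in capitals. The Fhod1 site starts at base 113 of a 3′UTR of 234 bases on chromosome 8, and the Zeb2 site at base 458 of 4941 on chromosome 2. Cers4 is on chromosome 8 and Fhl1 on chromosome X.
Fhod1: agtattgtgaaCAGTATTAggtgtgtgtgt
Zeb2: ctacagtgcatCAGTATTAcgattcctcaa
Cers4: ggctgagtgacCAGTATTActtaacgcaga
Fhl1: ctcccattttaCAGTATTAatcaacgaagg
Cers4, a ceramide synthase, had 2.30, 1.66 and 0.830 CPM in 28-2-200f, against 22.3, 16.6 and 28.7 CPM in 28-2EV (log2 fold change -3.81, SE 0.41, adjusted p = 0.00588). Fhl1, a LIM domain protein of muscle and stress fibres, had 6.38, 6.22 and 4.92 CPM in 28-2-200f, against 46.1, 17.9 and 42.5 CPM in 28-2EV (log2 fold change -2.60, SE 0.37, adjusted p = 0.0138). Both had no overlap between groups, and a match in a 3′UTR is a description of its letters, not evidence of pairing. The windows were taken only from genes that fell, and genes that rose held 8-base matches too. Trps1 had 1 for the miR-200b/miR-200c/miR-429 seed, and Vcan and Arfgef3 had 1 each for the miR-200a/miR-141 seed. Of 850 genes with 1 such match, 21 fell and 21 rose.

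Across the 11337 tested genes with an annotated 3′UTR, the median fold change was not lower in genes with seed matches. The median log2 fold change was -0.01 for 7863 genes with no match, 0.03 for 2251 genes with 1 match and 0.05 for 1223 genes with 2 or more, and the median 3′UTR length of these groups was 854, 1962 and 3245 bases. The share that fell at an FDR under 0.05 was 2.33% with no match, 2.22% with 1 match and 2.04% with 2 or more. Counting 8-base matches only, the order was the opposite, 2.25% with no match (234 of 10381), 2.47% with 1 match (21 of 850) and 2.83% with 2 or more (3 of 106), and these medians were 0.01, 0.01 and 0.02. With only the miR-200b/miR-200c/miR-429 seed matched, 2.63% of 1064 genes fell. These differences between classes were not tested. A match was held by 29.1% of the 258 genes that fell (75 genes) and by 32.1% of the 277 that rose (89 genes), against 30.6% of all 11337. Zeb2, with 9 matches of which 6 were followed by an A, and Zeb1, with 9, were among 24 genes with 6 or more matches, of which 11 had a fold change below 0 and 3 fell, the third being Gpr161. Gpr161 encodes a G protein-coupled receptor of the primary cilium, and it is named because it completes the count. The counts measure RNA only, so an effect on translation would not appear in them.

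**Figure D3:**
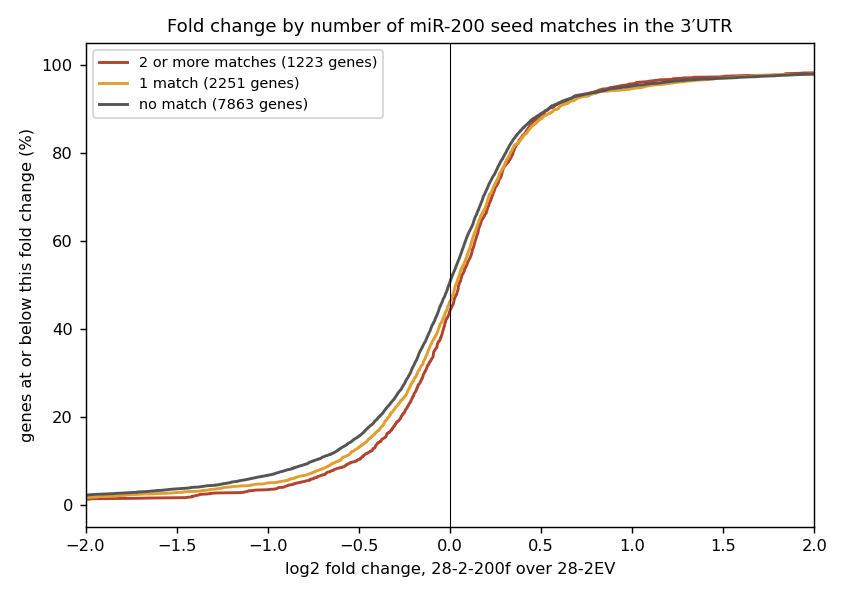
Cumulative share of genes by log2 fold change, 28-2-200f over 28-2EV, for 11337 genes grouped by the number of miR-200 seed matches in the 3′UTR, with fold changes from -2 to 2 shown. The 3 curves lie close together, and the curves of genes with 1 match and with 2 or more lie slightly to the right of that of genes with none (medians 0.03, 0.05 and -0.01).

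Epithelial genes were higher in 28-2-200f where they passed the test. Of 6 tested epithelial transcription factors, 4 rose and 0 fell, and all 6 had a fold change above 0, with a median log2 fold change of 4.61 (4.57 with a gene at 0 counts set to its lower bound). Grhl1, grainyhead-like 1, an activator of epithelial junction genes, had 10.1, 12.8 and 12.7 CPM in 28-2-200f, against 1.41, 1.65 and 1.26 CPM in 28-2EV (log2 fold change 3.04, SE 0.27, adjusted p = 0.00371). Ehf, an epithelial ETS factor, had 4.70, 4.31 and 2.61 CPM in 28-2-200f and 0 counts in all 3 28-2EV libraries, which made it at least 68.3-fold higher when 28-2EV is given a floor of 3 counts in all. Both separated the groups in every library. Elf3, another epithelial ETS factor, had 3.70, 4.93 and 18.03 CPM in 28-2-200f, against 0.108, 0 and 0.240 CPM in 28-2EV (adjusted p = 0.0181), and 28-2-200f replicate 3 lay well above the other two. The count that rose was 2 without 28-2-200f replicate 2 or 28-2EV replicate 1. Genes with 0 counts in 28-2EV passed the filter on low counts only through 28-2-200f, and floors and counting intervals cover counting error only.

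Of 22 tested genes of epithelial adhesion, junctions and polarity, 5 rose and 0 fell, and 20 had a fold change above 0 (median 0.72). Patj, a scaffold of the Crumbs polarity complex, had 64.1, 49.7 and 73.8 CPM in 28-2-200f, against 12.4, 12.1 and 16.44 CPM in 28-2EV (log2 fold change 2.20, SE 0.22, adjusted p = 0.00432). Crb3, the Crumbs protein of epithelial apical membranes, was nearly absent from 28-2EV, with 255 counts over the 28-2-200f libraries and 2 over the 28-2EV libraries, a ratio of 132 (95% interval from counting error 36.1 to 1095). Both belong to the same apical complex. Epcam, the epithelial cell adhesion molecule, had 15.1, 11.8 and 25.6 CPM in 28-2-200f and 0 counts in 28-2EV, and was at least 308-fold higher. Pkp1, plakophilin 1 of desmosomes, had 8.23, 11.3 and 11.4 CPM in 28-2-200f, against 0, 0.228 and 0 CPM in 28-2EV (log2 fold change 6.96, SE 0.81, adjusted p = 0.00906). Cldn3, a claudin of tight junctions, was the fifth, at 9.97, 15.95 and 13.8 CPM in 28-2-200f, against 3.19, 4.27 and 2.88 CPM in 28-2EV (adjusted p = 0.0156). The count of genes that rose in this list was 10 without 28-2EV replicate 2.

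All 7 keratins tested had a fold change above 0, and Krt7, Krt19 and Krt6a rose (median 1.58). Krt7, a keratin of simple glandular epithelia, had 169, 251 and 1176 CPM in 28-2-200f, against 0.271, 1.20 and 1.68 CPM in 28-2EV (log2 fold change 8.996, SE 1.08, adjusted p = 0.00936). Krt19, which 28-2EV also expressed strongly, had 2104, 2200 and 2540 CPM in 28-2-200f, against 1134, 1006 and 986 CPM in 28-2EV (log2 fold change 1.13, SE 0.17, adjusted p = 0.0165). Krt6a, a keratin of stratified epithelia, had 11.1, 14.7 and 129.9 CPM in 28-2-200f and 0 counts in 28-2EV. Krt7 and Krt6a were several times higher in 28-2-200f replicate 3 than in the other two, while Krt19 was even across the group. Krt8 had 1412, 1622 and 1823 CPM in 28-2-200f, against 1023, 1257 and 1085 CPM in 28-2EV (adjusted p = 0.158). Krt18, its partner, passed only without 28-2EV replicate 2 (adjusted p = 0.0286, against adjusted p = 0.0901 in the full fit). The count of keratins that rose was 1 without 28-2-200f replicate 2, 28-2EV replicate 1 or 28-2EV replicate 3 and 5 without 28-2EV replicate 2. Lama3, a laminin chain of epithelial basement membranes, rose, with 43.1, 32.3 and 66.3 CPM in 28-2-200f, against 2.65, 0 and 1.14 CPM in 28-2EV (adjusted p = 0.0221). None of these had any value in 28-2EV as high as the lowest in 28-2-200f. Lad1, ladinin of anchoring filaments, had 2587 counts over the 28-2-200f libraries and 3 over the 28-2EV libraries, a ratio of 892 (95% interval from counting error 305 to 4328). Perp, a desmosome protein and p53 target, had 229.7, 255 and 298 CPM in 28-2-200f, against 132, 128 and 157 CPM in 28-2EV (adjusted p = 0.0233) and was the only p53 target of 28 to pass.

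**Figure D4:**
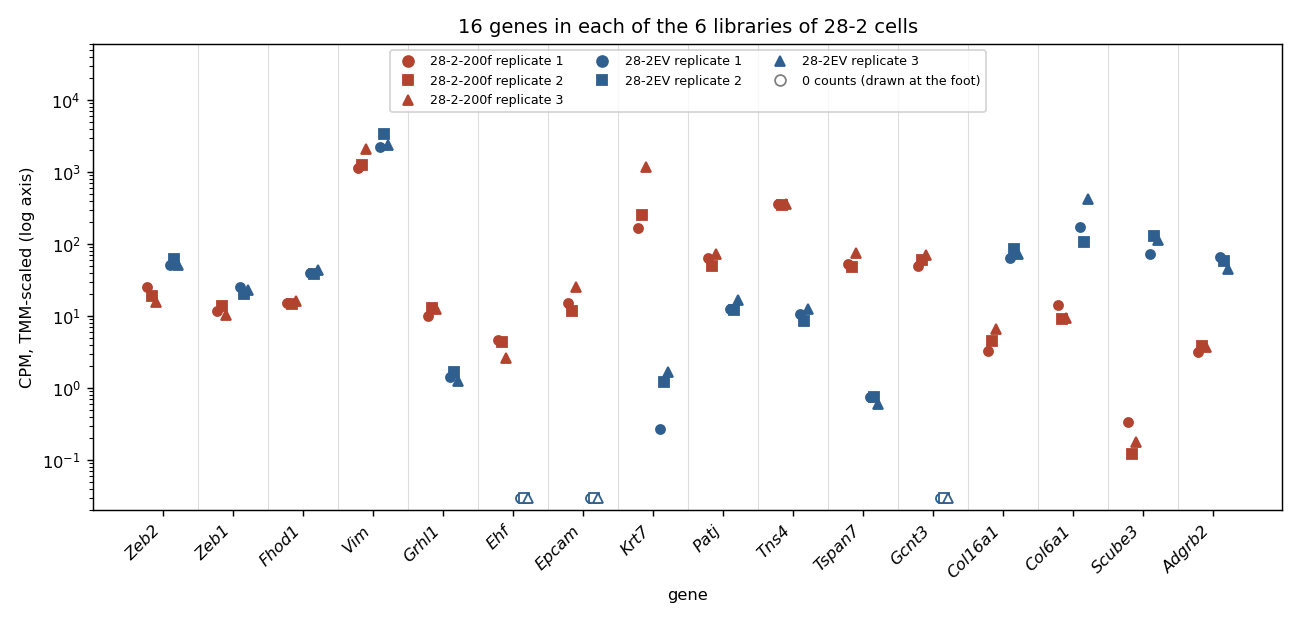
CPM on a log axis for 16 genes in each library, 28-2-200f to the left of 28-2EV for each gene, with open symbols at the foot for libraries with 0 counts. Zeb2, Zeb1 and Fhod1 are lower without overlap in 28-2-200f, the highest 28-2-200f library for Vim (2091) lies close below the lowest 28-2EV library (2196), and Epcam, Ehf and Gcnt3 have counts only in 28-2-200f.

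Zeb1 and Zeb2 bind E-box motifs of the letters CACCTG. The motif, read on both strands in the window from 250 bases before to 50 bases after the gene start (RefSeq promoters, GRCm38.p6, matched for 9541 of the 12679 symbols), was present in 20.2% of all 32851 promoters and in 17.3% of the 12188 promoters of genes tested. It was present in 30.3% of the 261 promoters of genes that rose (95% Wilson interval 25.0 to 36.1%) and in 16% of the 268 promoters of genes that fell. Among members of the epithelial lists that rose, 7 of 11 promoters from 7 genes held it. The other members that rose had no promoter in the set. Crb3 entered through overlapping promoters that share its sites, so those sites were counted more than once. Windows of 30 bases are shown for 4 epithelial genes that rose, with CACCTG or its reverse complement CAGGTG in capitals. The motif stands 187 bases before the start of Epcam on chromosome 17, 44 before that of Krt7 on chromosome 15, 19 before that of Patj on chromosome 4 and 140 before that of Elf3 on chromosome 1.
Epcam: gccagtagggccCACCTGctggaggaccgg
Krt7: ccgccctgtcccCACCTGtgtgcgctcagc
Patj: tggagagcggccCAGGTGaggaggcggccg
Elf3: gaatatgcaaatCACCTGggacagggagcc
Promoters of 1 gene are not independent of each other, and the letters alone do not show binding by either factor.

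Collagen and matrix genes were mostly lower in 28-2-200f where they passed. Of 18 tested collagen chains, 6 fell and 0 rose, 16 had a fold change below 0, and the median log2 fold change was -1.02. Col16a1, a fibril-associated collagen, had 3.30, 4.50 and 6.52 CPM in 28-2-200f, against 63.2, 85.4 and 72.4 CPM in 28-2EV (log2 fold change -3.95, SE 0.28, adjusted p = 0.00225). Col6a1, a chain of the microfibrillar collagen VI, had 14.1, 9.24 and 9.37 CPM in 28-2-200f, against 175, 106 and 419 CPM in 28-2EV (log2 fold change -4.42, SE 0.54, adjusted p = 0.00936). Its partner chain Col6a2 had 1.46, 0.616 and 0.356 CPM in 28-2-200f, against 28.0, 11.7 and 102 CPM in 28-2EV (adjusted p = 0.0188). Both collagen VI chains were uneven in 28-2EV, lowest in replicate 2 and highest in replicate 3, yet every 28-2EV value lay above every 28-2-200f value. Col5a1 had 0.728, 1.05 and 0.178 CPM in 28-2-200f, against 9.42, 12.1 and 12.2 CPM in 28-2EV (log2 fold change -4.10, SE 0.54, adjusted p = 0.0111). Col1a1, a chain of collagen I, was low in both groups, at 2.07, 3.08 and 1.96 CPM in 28-2-200f, against 5.63, 8.65 and 7.80 CPM in 28-2EV (adjusted p = 0.0378). The count of collagen chains that fell was 2 without 28-2-200f replicate 2 and 3 without 28-2-200f replicate 1 or 28-2EV replicate 1.

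Of 24 tested genes for proteins that fold and cross-link collagen, 5 fell and 0 rose, 18 had a fold change below 0 and 6 above (median -0.37), and 11 were lower and 3 higher at an unadjusted p under 0.05. Serpinh1, the collagen chaperone HSP47, had 312, 393 and 314 CPM in 28-2-200f, against 1167, 782 and 874 CPM in 28-2EV (log2 fold change -1.47, SE 0.21, adjusted p = 0.0132). Loxl3, a lysyl oxidase, had 5.38, 7.82 and 5.34 CPM in 28-2-200f, against 20.9, 27.1 and 24.6 CPM in 28-2EV (log2 fold change -1.97, SE 0.24, adjusted p = 0.00936). Both were expressed in all 6 libraries. Adamts14, a protease that trims procollagen, had 5.77, 4.00 and 1.30 CPM in 28-2-200f, against 38.6, 51.2 and 49.1 CPM in 28-2EV (adjusted p = 0.0111). Rcn3, a calcium-binding protein of the endoplasmic reticulum, had 0.0560, 0.123 and 0.0593 CPM in 28-2-200f, against 6.06, 4.27 and 14.1 CPM in 28-2EV (adjusted p = 0.00588). Each of the 4 separated the groups without overlap, as every gene that passed did. Pxdn, peroxidasin, which cross-links collagen IV and was not on this list, had 1.90, 2.22 and 1.84 CPM in 28-2-200f, against 21.2, 22.3 and 12.2 CPM in 28-2EV (log2 fold change -3.22, SE 0.31, adjusted p = 0.00430). The count on this list was 2 without 28-2-200f replicate 2, 3 without 28-2-200f replicate 1 and 9 without 28-2EV replicate 2.

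Of 21 matrix glycoproteins and proteoglycans, 7 fell and 2 rose. Fstl1, a follistatin-like secreted glycoprotein, had 21.4, 19.5 and 10.3 CPM in 28-2-200f, against 134, 102 and 219.5 CPM in 28-2EV (log2 fold change -3.15, SE 0.38, adjusted p = 0.00936). Ltbp4, which binds latent TGF-beta, had 81.1, 71.7 and 82.8 CPM in 28-2-200f, against 204, 145 and 283 CPM in 28-2EV (adjusted p = 0.0220). Emilin1, an elastic fibre glycoprotein, had 0.616, 0.554 and 0.474 CPM in 28-2-200f, against 5.68, 2.16 and 4.86 CPM in 28-2EV (adjusted p = 0.0181). The 2 that rose went against the list. Vcan, the proteoglycan versican, had 23.02, 39.9 and 26.1 CPM in 28-2-200f, against 2.76, 4.67 and 1.68 CPM in 28-2EV (log2 fold change 3.28, SE 0.41, adjusted p = 0.00977). Spp1, osteopontin, had 2055, 2368 and 1146 CPM in 28-2-200f, against 617, 555 and 395 CPM in 28-2EV (log2 fold change 1.83, SE 0.31, adjusted p = 0.0216). Lamb1, a laminin beta chain, fell, with 34.4, 38.1 and 69.1 CPM in 28-2-200f, against 116, 136 and 149 CPM in 28-2EV (adjusted p = 0.0282). The count that fell was 0 without 28-2-200f replicate 2, 1 without 28-2EV replicate 1, 2 without 28-2-200f replicate 1 or 28-2EV replicate 3 and 3 without 28-2-200f replicate 3, and 0 of 12 integrins passed the edgeR test in either direction (2 each way at an unadjusted p under 0.05, and 0 higher and 1 lower with DESeq2). Of the defining fibroblast markers, Lum and Thy1 were at 0 counts in all 6 libraries, Col1a2 had 1 count in 28-2EV replicate 1 and none elsewhere, and Acta2 had at most 0.626 CPM. The 8 markers summed to 223 to 384 CPM in 28-2-200f and 83.7 to 479 CPM in 28-2EV. Dcn, the proteoglycan decorin, made up most of each sum, at 379.7, 222 and 218 CPM in 28-2-200f, against 195, 65.6 and 452 CPM in 28-2EV (adjusted p = 0.888). Of the 4 fibroblast markers tested, Pdgfra and Col1a1 fell and 0 rose (median log2 fold change -2.09), and their part in the matrix results was not tested.

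Of 32 tested genes of the Wnt pathway, 10 fell and 2 rose (median -0.36). Among the ligands, Wnt4 had 15.8, 18.8 and 25.1 CPM in 28-2-200f, against 76.6, 48.7 and 89.1 CPM in 28-2EV (log2 fold change -1.84, SE 0.28, adjusted p = 0.0151). Wnt5b had 2.18, 1.72 and 1.07 CPM in 28-2-200f, against 9.74, 8.14 and 11.2 CPM in 28-2EV (log2 fold change -2.54, SE 0.35, adjusted p = 0.0121). Wnt10b had 1.57, 1.601 and 2.19 CPM in 28-2-200f, against 15.2, 6.20 and 17.2 CPM in 28-2EV (adjusted p = 0.0165). Wnt4, expressed in the female reproductive tract, had the highest CPM of these in 28-2EV, on a scale not corrected for length. Wnt2 had 0.448, 0.493 and 0.830 CPM in 28-2-200f, against 5.03, 5.86 and 2.64 CPM in 28-2EV (adjusted p = 0.0181). For all 4 ligands the 28-2-200f libraries lay below the 28-2EV libraries without overlap. Wnt7b, a ligand of epithelia, went the other way, with 19.1, 29.6 and 62.6 CPM in 28-2-200f, against 3.36, 3.93 and 2.28 CPM in 28-2EV (log2 fold change 3.54, SE 0.48, adjusted p = 0.0121). Ror1, a receptor for Wnt5a, also rose, with 43.0, 38.0 and 54.1 CPM in 28-2-200f, against 17.6, 26.4 and 15.9 CPM in 28-2EV (adjusted p = 0.0415). Sfrp4, a secreted Wnt inhibitor, had 11.3, 7.39 and 16.9 CPM in 28-2-200f, against 27.1, 71.0 and 40.8 CPM in 28-2EV (adjusted p = 0.0483). The count that fell was 0 without 28-2-200f replicate 2 or 28-2EV replicate 1, 2 without 28-2-200f replicate 1, 3 without 28-2-200f replicate 3 and 4 without 28-2EV replicate 3.

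Several growth factor and guidance genes changed. Of 39 genes of the TGF-beta, activin and BMP pathway, 3 fell and 1 rose. Tgfb1, the ligand TGF-beta 1, had 29.6, 26.2 and 26.4 CPM in 28-2-200f, against 55.7, 53.1 and 60.4 CPM in 28-2EV (log2 fold change -1.04, SE 0.14, adjusted p = 0.0118). Its replicates were close in both groups. Bmpr1b, a BMP receptor, had 3.47, 4.56 and 14.3 CPM in 28-2-200f, against 0.812, 0.854 and 0.780 CPM in 28-2EV (adjusted p = 0.0313). Gdf6, a BMP ligand, had 16.9, 31.3 and 35.2 CPM in 28-2-200f, against 126, 158 and 72.2 CPM in 28-2EV (adjusted p = 0.0233). Of 22 receptor tyrosine kinases outside the Eph family, 3 fell and 2 rose. Egfr had 178, 189 and 212 CPM in 28-2-200f, against 109, 126 and 121 CPM in 28-2EV (log2 fold change 0.70, SE 0.14, adjusted p = 0.0356). Tyro3, a receptor of the TAM family, had 29.0, 31.7 and 20.9 CPM in 28-2-200f, against 99.4, 59.5 and 148 CPM in 28-2EV (adjusted p = 0.0243). Ddr2, a collagen receptor, had 0, 0.370 and 1.78 CPM in 28-2-200f, against 25.98, 12.3 and 28.7 CPM in 28-2EV (adjusted p = 0.0332). Ddr2 was near 0 in 28-2-200f replicate 1 and above 1 CPM in replicate 3, still below every 28-2EV library. Btc, betacellulin, a ligand of Egfr, was the only one of 8 EGF receptor ligands to pass, at 302, 268 and 255 CPM in 28-2-200f, against 96.9, 125 and 156 CPM in 28-2EV (adjusted p = 0.0236). Ereg passed only without 28-2EV replicate 2 (adjusted p = 0.000545, against adjusted p = 0.135 with all libraries).

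Of 17 genes of MAPK feedback and ETS output 2 fell, both inhibitors of the pathway. Spry1 had 0.168, 0.123 and 0.652 CPM in 28-2-200f, against 7.42, 6.37 and 5.70 CPM in 28-2EV (adjusted p = 0.0123). Spred3 had 5.49, 5.48 and 4.21 CPM in 28-2-200f, against 12.1, 13.8 and 13.3 CPM in 28-2EV (adjusted p = 0.0196). Of 14 Notch pathway genes only Notch3 passed, with 1.40, 1.601 and 1.54 CPM in 28-2-200f, against 65.5, 11.7 and 55.7 CPM in 28-2EV (log2 fold change -4.87, SE 0.66, adjusted p = 0.0116), and its 28-2EV replicate 2 lay far below the other two. Semaphorin and Eph genes gave 3 lower and 0 higher each, of 24 and 27 tested. Sema5a had 44.3, 32.5 and 19.3 CPM in 28-2-200f, against 168, 129.6 and 355 CPM in 28-2EV (adjusted p = 0.0191). Plxnd1, a plexin, the receptor family of semaphorins, had 3.53, 4.43 and 5.75 CPM in 28-2-200f, against 17.3, 15.1 and 29.9 CPM in 28-2EV (adjusted p = 0.0165). Ephb4, a receptor for ephrin B2, was nearly absent from 28-2-200f, with 2 counts over the 28-2-200f libraries and 202 over the 28-2EV libraries, a ratio of 97.6 (95% interval from counting error 26.7 to 812), 28-2EV over 28-2-200f. Receptor and ligand genes of both families were thus among those that fell. Efnb1, ephrin B1, had 88.7, 99.2 and 62.2 CPM in 28-2-200f, against 252, 153 and 182 CPM in 28-2EV (adjusted p = 0.0379). Flrt1, a leucine-rich repeat membrane protein, had 3.75, 1.91 and 2.02 CPM in 28-2-200f, against 66.3, 24.8 and 86.2 CPM in 28-2EV (log2 fold change -4.52, SE 0.53, adjusted p = 0.00908). Each of these genes separated the groups without overlap.

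Genes of the GAP, GEF and DOCK list, regulators of small GTPases that shape the actin cytoskeleton, passed in equal numbers in both directions, 7 higher and 7 lower of 72 tested. In addition to Arhgap40, Arhgef6, an exchange factor for Rac and Cdc42, had 218 counts over the 28-2-200f libraries and 3 over the 28-2EV libraries, a ratio of 75.2 (95% interval from counting error 25.4 to 367). Prex1, an exchange factor for Rac, had 9.69, 13.6 and 14.5 CPM in 28-2-200f, against 0.433, 0 and 0 CPM in 28-2EV (adjusted p = 0.0139). Both genes were almost undetected in 28-2EV. Among those that fell, Dock10, an exchange factor for Cdc42 and Rac, had 0.952, 0.801 and 0.712 CPM in 28-2-200f, against 5.03, 5.29 and 5.46 CPM in 28-2EV (log2 fold change -2.67, SE 0.32, adjusted p = 0.00936). Vav2, an exchange factor of the Vav family, had 22.5, 25.6 and 26.3 CPM in 28-2-200f, against 48.6, 53.2 and 49.0 CPM in 28-2EV (log2 fold change -1.02, SE 0.14, adjusted p = 0.0132). Arhgap29, another GTPase-activating protein, had 37.5, 22.5 and 27.2 CPM in 28-2-200f, against 85.5, 65.7 and 106 CPM in 28-2EV (adjusted p = 0.0182). The exchange factors and activating proteins thus did not fall on different sides. The count that rose was 2 without 28-2-200f replicate 2, 3 without 28-2-200f replicate 1, 28-2-200f replicate 3 or 28-2EV replicate 1 and 4 without 28-2EV replicate 3, and the count that fell was 0 without 28-2-200f replicate 2, 1 without 28-2EV replicate 1 and 3 without 28-2-200f replicate 1, 28-2-200f replicate 3 or 28-2EV replicate 3. Amot, angiomotin, which binds YAP at junctions, was the only gene of 28 on the Hippo list to pass, with 17.1, 15.3 and 20.2 CPM in 28-2-200f, against 3.14, 3.53 and 2.58 CPM in 28-2EV (log2 fold change 2.504, SE 0.24, adjusted p = 0.00430). The 28-2-200f range lay wholly above that of 28-2EV. Fermt2, kindlin 2, an integrin activator, fell slightly, with 92.6, 89.7 and 86.4 CPM in 28-2-200f, against 137, 128 and 144 CPM in 28-2EV (adjusted p = 0.0402). Rgs3, a regulator of G protein signalling, had 0.0560, 0.616 and 0 CPM in 28-2-200f, against 17.97, 9.11 and 29.0 CPM in 28-2EV (adjusted p = 0.0146).

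Enzymes that build surface glycans mostly rose where they passed, 6 higher and 1 lower of 46. Gcnt3, which branches the core of mucin-type O-glycans, had 50.1, 59.8 and 70.1 CPM in 28-2-200f and 0 counts in 28-2EV. B3gnt3, which extends O-glycans, had 104, 127 and 186 CPM in 28-2-200f, against 21.4, 19.3 and 27.3 CPM in 28-2EV (log2 fold change 2.61, SE 0.26, adjusted p = 0.00455). Fut2, a fucosyltransferase of epithelial surfaces, had 44.6, 45.2 and 43.2 CPM in 28-2-200f, against 1.14, 0 and 1.02 CPM in 28-2EV (log2 fold change 5.93, SE 0.73, adjusted p = 0.00936). Its level was nearly constant in 28-2-200f. St8sia4, a polysialyltransferase, had 13.1, 12.3 and 12.6 CPM in 28-2-200f, against 0.325, 0.512 and 0 CPM in 28-2EV (adjusted p = 0.0105). St3gal5, which makes the ganglioside GM3, had 81.9, 76.3 and 63.9 CPM in 28-2-200f, against 114, 127 and 153 CPM in 28-2EV (adjusted p = 0.0404). The count that rose was 6 in the full fit and 3 without 28-2-200f replicate 2 or 28-2EV replicate 1.

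Other membrane proteins changed by large factors. Of 23 tetraspanins 4 rose and 1 fell. Tspan9 had 255, 223 and 273 CPM in 28-2-200f, against 53.5, 74.6 and 73.6 CPM in 28-2EV (log2 fold change 1.90, SE 0.18, adjusted p = 0.00430). Tspan6, on the X chromosome, had 10.7, 7.64 and 10.2 CPM in 28-2-200f, against 0.487, 1.08 and 1.32 CPM in 28-2EV (log2 fold change 3.30, SE 0.42, adjusted p = 0.00977). Tspan1 had 9.30, 3.88 and 4.86 CPM in 28-2-200f, against 0.487, 0.228 and 0.720 CPM in 28-2EV (adjusted p = 0.0165). The size of the increase differed widely among them. Tspan11, the exception, had 0.224, 0.431 and 0 CPM in 28-2-200f, against 6.33, 3.36 and 11.7 CPM in 28-2EV (adjusted p = 0.0234). Psca, a surface antigen of epithelial tumors, had 32.3, 19.5 and 93.0 CPM in 28-2-200f, against 0, 0.0569 and 0 CPM in 28-2EV. It was highest in 28-2-200f replicate 3, as Krt7 and Krt6a were. Cysltr1, the receptor for cysteinyl leukotrienes, had 901 counts over the 28-2-200f libraries and 3 over the 28-2EV libraries, a ratio of 311 (95% interval from counting error 106 to 1509). Cd177, a glycosylphosphatidylinositol-anchored protein of neutrophils, had 13.5, 17.2 and 4.15 CPM in 28-2-200f, against 0.108, 0.0569 and 0.240 CPM in 28-2EV (log2 fold change 6.37, SE 0.75, adjusted p = 0.00909). F2rl1, the protease-activated receptor 2, had 8.51, 12.7 and 17.7 CPM in 28-2-200f, against 1.95, 2.16 and 2.46 CPM in 28-2EV (log2 fold change 2.56, SE 0.34, adjusted p = 0.0111). The spread within 28-2-200f was wide for Cd177 and F2rl1. Aqp5, a water channel, fell, with 6.72, 6.28 and 11.8 CPM in 28-2-200f, against 63.7, 72.5 and 70.3 CPM in 28-2EV (log2 fold change -3.06, SE 0.27, adjusted p = 0.00371). Scara5, a ferritin receptor, had 0.168, 0.246 and 0.119 CPM in 28-2-200f, against 79.6, 13.8 and 66.0 CPM in 28-2EV (log2 fold change -8.17, SE 0.86, adjusted p = 0.00559), and its 28-2EV replicate 2 was again the lowest of its group.

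Several more of the largest increases were in genes with no count in any 28-2EV library. Slc25a48, a mitochondrial carrier, had 24.4, 44.8 and 47.0 CPM in 28-2-200f, at least 674-fold higher. Pip5k1b, a phosphoinositide kinase, had 18.1, 11.4 and 19.3 CPM. Trps1, a GATA-type repressor, had 15.2, 11.1 and 17.2 CPM. None of these had a read in 28-2EV. Armcx3, an X-linked protein of the mitochondrial outer membrane, had 12.9, 9.55 and 17.9 CPM. Ctse, cathepsin E, had 17.6, 5.91 and 16.7 CPM, with replicate 2 lowest. The fold cannot be measured in such genes, only bounded. Mrgprb2, a Mas-related G protein-coupled receptor of mast cells, had 9.13, 10.0 and 14.2 CPM. All 3 28-2-200f libraries held reads of each of these genes. Ckmt1, mitochondrial creatine kinase, was detected in both groups, with 36.4, 30.5 and 83.2 CPM in 28-2-200f, against 0.595, 0.683 and 0.600 CPM in 28-2EV (log2 fold change 6.30, SE 0.50, adjusted p = 0.00311). Its increase held an FDR under 0.05 whichever library was left out. Arfgef3, an exchange factor homolog for ARF GTPases, had 37.1, 32.5 and 21.9 CPM in 28-2-200f, against 1.30, 0.285 and 0.480 CPM in 28-2EV (log2 fold change 5.44, SE 0.53, adjusted p = 0.00430). At an FDR under 0.05, 30 of the genes that rose had 0 counts in 28-2EV and 3 of those that fell had 0 counts in 28-2-200f. Among the largest decreases, Rhbdl3, a rhomboid-like membrane protein, had 0.112, 0 and 0.119 CPM in 28-2-200f, against 30.4, 17.9 and 35.9 CPM in 28-2EV (log2 fold change -8.36, SE 0.58, adjusted p = 0.00194). It was at or under 2 counts in each 28-2-200f library. Dennd2a, an exchange factor for a Rab GTPase, had 0.840, 0.801 and 0.474 CPM in 28-2-200f, against 13.2, 9.62 and 17.5 CPM in 28-2EV (log2 fold change -4.23, SE 0.38, adjusted p = 0.00371). Map1a, a microtubule-associated protein, had 1.29, 2.16 and 3.50 CPM in 28-2-200f, against 23.1, 15.8 and 26.5 CPM in 28-2EV (adjusted p = 0.00973). Ak1, adenylate kinase 1, had 5.10, 8.19 and 5.75 CPM in 28-2-200f, against 51.4, 47.1 and 78.6 CPM in 28-2EV (log2 fold change -3.22, SE 0.29, adjusted p = 0.00371).

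Genes of antigen presentation by MHC class I rose in 4 of 14 cases and fell in 0, with a median log2 fold change of 0.44. H2-K1, a classical class I heavy chain, had 163, 183 and 108 CPM in 28-2-200f, against 17.9, 33.3 and 19.6 CPM in 28-2EV (log2 fold change 2.68, SE 0.31, adjusted p = 0.00866). H2-D1, the other classical chain, had 235, 239.5 and 253 CPM in 28-2-200f, against 88.0, 151 and 90.8 CPM in 28-2EV (adjusted p = 0.0374). The 28-2EV values of H2-D1 were lower without overlap. Nlrc5, the transactivator of class I genes, had 10.0, 11.4 and 6.05 CPM in 28-2-200f, against 0.704, 1.37 and 0.420 CPM in 28-2EV (log2 fold change 3.45, SE 0.50, adjusted p = 0.0139). H2-Q4, a nonclassical class I gene, was low, with 82 counts over the 28-2-200f libraries and 1 over the 28-2EV libraries. Reads of the class I heavy chains, which are near-identical in part, may be split between them. In 28-2EV, replicate 2 was the highest library for the first 3 of these genes, as it was for interferon-stimulated genes, of which 0 of 24 passed the edgeR test (1 higher and 1 lower at an unadjusted p under 0.05, and 1 higher with DESeq2). The count of class I genes that rose was 1 without 28-2-200f replicate 2 or 28-2EV replicate 1.

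Of 23 genes of the NF-kB and TNF response, 1 rose and 1 fell. Ptgs2, cyclooxygenase 2, had 287, 365 and 452 CPM in 28-2-200f, against 62.3, 108 and 78.6 CPM in 28-2EV (log2 fold change 2.15, SE 0.26, adjusted p = 0.00936). Csf1, macrophage colony-stimulating factor, had 61.4, 56.3 and 64.7 CPM in 28-2-200f, against 187, 371 and 249.6 CPM in 28-2EV (log2 fold change -2.15, SE 0.26, adjusted p = 0.00936). The 8 leukocyte markers were near 0, summing to 12.2 to 16.9 CPM in 28-2-200f and 5.30 to 7.85 CPM in 28-2EV, with Ptprc, Adgre1, Csf1r, Lyz2 and Cd3e at 0 counts in all 6 libraries. Cd14, the lipopolysaccharide co-receptor, made up most of that sum and rose, with 11.7, 14.8 and 10.8 CPM in 28-2-200f, against 3.25, 4.27 and 2.76 CPM in 28-2EV (log2 fold change 1.86, SE 0.28, adjusted p = 0.0151). Of the endothelial markers Cdh5 and Kdr were at 0 counts in all libraries. Of the 11 mesothelial and ovarian surface markers tested, Krt19 rose and Lrrn4 fell, 5 were higher and 2 lower at an unadjusted p under 0.05, and 8 had no overlap between groups. Over all genes tested 4.45% passed, 9.62% were higher and 10.5% lower at an unadjusted p under 0.05, and 26.2% had no overlap. Krt8, Krt18 and Krt19 on the mesothelial list are also epithelial markers. All 6 epithelial markers tested were higher at an unadjusted p under 0.05 and had no overlap. Lrrn4, a leucine-rich repeat protein of the mesothelium, had 0.672, 0.554 and 0.830 CPM in 28-2-200f, against 2.65, 5.24 and 4.26 CPM in 28-2EV (log2 fold change -2.55, SE 0.41, adjusted p = 0.0181). Wt1, a transcription factor of the mesothelium and ovarian surface, was expressed in both groups, with 617, 629.6 and 647 CPM in 28-2-200f, against 743, 751 and 1034 CPM in 28-2EV (adjusted p = 0.255). Msln, mesothelin, had 605, 590.0 and 997 CPM in 28-2-200f, against 292, 495 and 449 CPM in 28-2EV (adjusted p = 0.163). The epithelial markers summed to 4988 to 7015 CPM in 28-2-200f and 2826 to 3237 CPM in 28-2EV. In bulk libraries, fewer cells of a type and less RNA per cell cannot be told apart.

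Lists of proliferation gave no call. Of 41 DNA replication genes and 35 mitosis genes 0 passed the edgeR test in either direction, with 1 and 0 genes at an unadjusted p under 0.05 and 1 and 0 by DESeq2, and the mean levels of both lists overlapped between the groups. Of 22 growth arrest genes 0 passed, with 4 higher and 2 lower at an unadjusted p under 0.05 and 2 higher and 3 lower by DESeq2. Among apoptosis regulators, Dapk2, a death-associated kinase, rose, with 47.8, 33.1 and 36.1 CPM in 28-2-200f, against 2.17, 2.11 and 4.14 CPM in 28-2EV (log2 fold change 3.80, SE 0.33, adjusted p = 0.00371). Of the polycomb list Phf19, a subunit linked to PRC2, had 4.48, 8.50 and 9.37 CPM in 28-2-200f, against 33.3, 53.2 and 26.7 CPM in 28-2EV (log2 fold change -2.34, SE 0.37, adjusted p = 0.0170). Cbx7, of PRC1, had 3.58, 3.82 and 0.712 CPM in 28-2-200f, against 34.0, 19.7 and 34.9 CPM in 28-2EV (adjusted p = 0.0192). Both were lower in each 28-2-200f library, and the others of 32 polycomb genes tested did not pass.

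Metabolic lists changed in few genes. Of 18 glutathione transferases 3 fell and 1 rose. Gstt1 had 0.112, 0.0616 and 0.0593 CPM in 28-2-200f, against 11.6, 4.61 and 19.6 CPM in 28-2EV (log2 fold change -7.12, SE 0.75, adjusted p = 0.00559). Gstm2 had 9.91, 5.60 and 4.63 CPM in 28-2-200f, against 67.5, 32.6 and 186 CPM in 28-2EV (adjusted p = 0.0234). Gsta1 went the other way, with 8.23, 10.96 and 14.7 CPM in 28-2-200f, against 0.108, 0.228 and 0.660 CPM in 28-2EV (log2 fold change 5.08, SE 0.60, adjusted p = 0.00908). The glutathione transferases that fell were lowest in 28-2EV replicate 2 among the 28-2EV libraries, and paralogs of this family can share reads. Osgin1, an NRF2 target, rose, with 188, 284 and 357 CPM in 28-2-200f, against 74.0, 119 and 86.5 CPM in 28-2EV (adjusted p = 0.0244). Car9, carbonic anhydrase 9, had 5.32, 6.22 and 8.54 CPM in 28-2-200f, against 0.974, 0.0569 and 0.360 CPM in 28-2EV (adjusted p = 0.0317). Slc2a3, the glucose transporter GLUT3, had 24.9, 31.0 and 30.6 CPM in 28-2-200f, against 51.0, 47.4 and 44.0 CPM in 28-2EV (adjusted p = 0.0490). Each was the only gene to pass in its direction on its list. Igf2bp2, an RNA-binding protein, had 46.0, 52.2 and 53.7 CPM in 28-2-200f, against 19.9, 22.9 and 27.4 CPM in 28-2EV (adjusted p = 0.0165). Igfbp4, which binds IGF, had 319, 339.6 and 203 CPM in 28-2-200f, against 1055, 659 and 794 CPM in 28-2EV (adjusted p = 0.0216). All 8 mitochondrially encoded genes tested had a fold change below 0 (median -0.78) and 74 of 82 cytosolic ribosomal protein genes did (median -0.14), with 0 in either list passing (5 and 3 lower at an unadjusted p under 0.05, and 4 and 0 lower by DESeq2). Of 31 genes of cholesterol and fatty acid synthesis 27 had a fold change above 0 (median 0.32) and 0 passed (4 higher at an unadjusted p under 0.05, and 1 by DESeq2).

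The study names 19 genes as linked to EMT and 17 as linked to migration in these cells, and since it chose them on these libraries the counts are no independent evidence of direction. Of 18 tested EMT genes 11 fell and 2 rose, and of 16 tested migration genes 11 fell and 2 rose. Ctsh, cathepsin H, had 264, 210.0 and 184 CPM in 28-2-200f, against 46.4, 13.5 and 74.8 CPM in 28-2EV (adjusted p = 0.0622) and passed without 28-2EV replicate 2 (adjusted p = 0.00991). Areg, amphiregulin, had 17.1, 22.9 and 44.4 CPM in 28-2-200f, against 1.95, 10.2 and 1.62 CPM in 28-2EV (adjusted p = 0.102), and likewise passed without that library (adjusted p = 0.00645). Col3a1 had 0.728, 0.985 and 0.534 CPM in 28-2-200f, against 5.85, 0.797 and 6.66 CPM in 28-2EV (adjusted p = 0.114), and its 28-2EV replicate 2 lay within the range of 28-2-200f. It passed without that library (adjusted p = 0.00824). Sh3rf2, a ubiquitin ligase, had 0.560, 0.678 and 16.7 CPM in 28-2-200f, against 0.541, 0.228 and 0.360 CPM in 28-2EV (adjusted p = 0.173), high in 28-2-200f replicate 3 alone. The 10 genes that lead the study's table for this line all passed here, 7 higher and 3 lower. The study ranked them by FDR on these same libraries, so this too is no independent evidence. Among them Lncenc1, a long noncoding RNA, had 100.1, 124 and 174 CPM in 28-2-200f, against 5.63, 3.87 and 2.22 CPM in 28-2EV (log2 fold change 5.08, SE 0.39, adjusted p = 0.00294).

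Levels also differed by chromosome, a pattern looked for after the values had been seen, so it is a description. Of 428 genes on chromosome 1 with a mean of at least 20 CPM, 77.8% had a fold change above 0, with a median log2 fold change of 0.24, against 54.3% and 0.03 for genes on all chromosomes at that level. All 3 28-2-200f libraries lay above the 28-2EV libraries, and replicate 3 lay highest. Relative to the mean of the 6 libraries, the median gene on chromosome 1 stood at 0.02, 0.04 and 0.32 in 28-2-200f, against -0.15, -0.08 and -0.13 in 28-2EV. In 28-2-200f replicate 3 the median was raised by 0.28 to 0.38 in each of 9 consecutive blocks of genes along the chromosome. On chromosome 15 the shift was downward, with 24.9% of 349 genes above 0, a median log2 fold change of -0.22, and medians of -0.17, -0.08 and -0.04 in 28-2-200f, against 0.10, 0.14 and 0.03 in 28-2EV. Of the 7 blocks along chromosome 15, 6 had a median log2 fold change of -0.17 to -0.40 and the first of -0.06. Chromosome 15 held 9.75% of the genes that fell (27 of 277), against 4.06% of genes tested, and chromosome 1 held 9.44% of those that rose (27 of 286), against 5.85%. Copy number was not measured, and the part of these shifts in single genes was not tested. Of the genes named above, Ctse, Lad1, Pkp1, Elf3, Ptgs2 and St8sia4 are on chromosome 1 and rose. Twist2, Dock10, Ddr2 and Gpr161 are also on chromosome 1 and fell. Aqp5, Rbfox2, Sema5a, Wnt10b and Cbx7 are on chromosome 15 and fell. Psca, Trps1, Krt7, Krt6a and Wnt7b are also on chromosome 15 and rose.

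**Figure D5:**
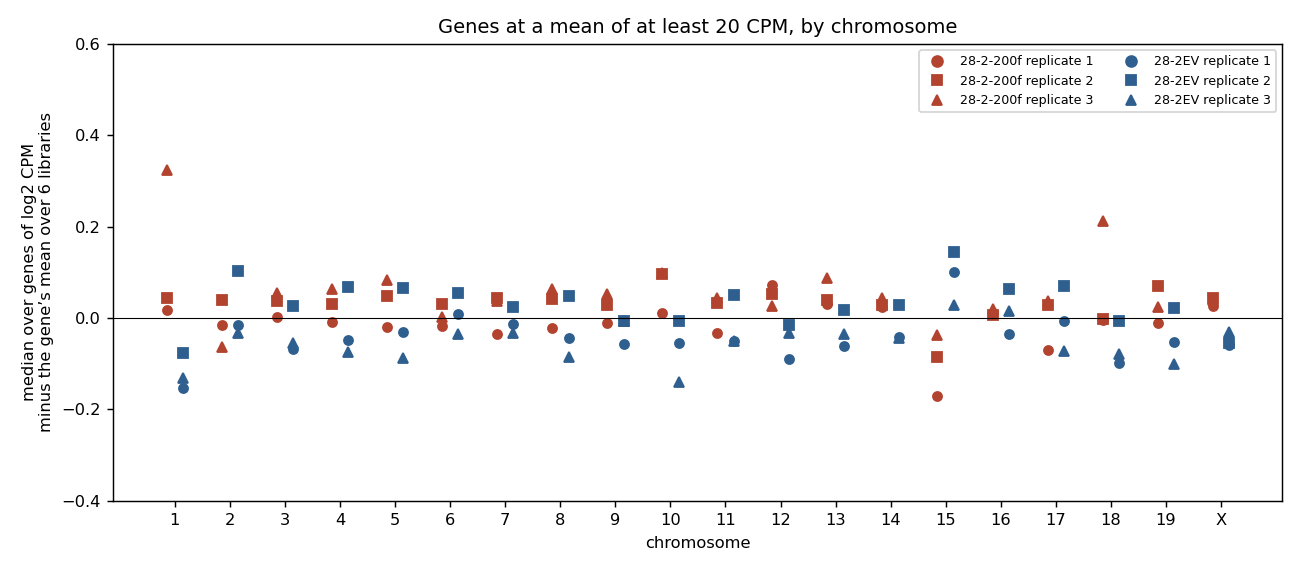
Median log2 level of the genes of each chromosome relative to the mean of the 6 libraries, for genes with a mean of at least 20 CPM, by library. 28-2-200f replicate 3 stands out on chromosome 1 (0.32) and chromosome 18 (0.21), and all 3 28-2-200f libraries lie below the 28-2EV libraries on chromosome 15.

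The X chromosome held 8 of the 65 genes higher past both thresholds (12.3%, against 3.12% of genes tested) and 0 of the 31 lower. Chromosomes 1 and 9, with more genes tested (733 and 694, against 390), also held 8 of the 65 each. At an FDR under 0.05 alone, X held 16 of the 286 genes that rose (5.59%) and 9 of the 277 that fell (3.25%). The median log2 fold change of X-linked genes at 20 CPM or more was 0.07. Of the 8 X-linked genes past both thresholds, Tspan7, Cysltr1, Amot, Armcx3, Arhgef6 and Tspan6 are given above. Gria3, a glutamate receptor subunit, had 174 counts over the 28-2-200f libraries and 1 over the 28-2EV libraries, a ratio of 180.0 (95% interval from counting error 31.9 to 7150). Rtl8b, a retrotransposon-derived gene, had 2.97, 3.63 and 5.87 CPM in 28-2-200f, against 0.271, 0.171 and 0.360 CPM in 28-2EV (log2 fold change 3.93, SE 0.48, adjusted p = 0.00936). Xist, the noncoding RNA that silences an X chromosome in female cells, had 211, 168 and 142 CPM in 28-2-200f, against 445, 474 and 342 CPM in 28-2EV (log2 fold change -1.27, SE 0.21, adjusted p = 0.0181). It was chosen after its values were seen. Every 28-2-200f library had less Xist than every 28-2EV library, and the X-linked genes that fell, among them Fhl1 and Efnb1, did so alongside those that rose.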

How the data were processed

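The deposited values were whole read counts per gene in each library, with TPM and CPM values that the authors' pipeline derived from the same reads. The authors used BBDuk for trimming, STAR for alignment and featureCounts for gene counts, all within Genialis software, and the submitters' notes name featureCounts and the build GRCm39. No aligner version, annotation or strand setting was given in the sources used here, so reads of overlapping and antisense genes may not be separable. The deposited TPM served as an alternative only, and the deposited CPM were not tested. The files held no comparisons by the authors.

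Only the 6 libraries of 28-2 cells were fitted, 28-2-200f over 28-2EV, using the quasi-likelihood test of edgeR 4.0.16 (R 4.3.3) with TMM scaling, filterByExpr and no block. P-values were adjusted by Benjamini-Hochberg over all 12679 genes tested. The SE is the fitted log2 fold change divided by the root of the test statistic. The cut-off is that of the study, an FDR below 0.01 together with a log2 fold change beyond 1 in size. At this cut-off the study reports several times more genes for this line than the 96 found here, in near-equal numbers higher and lower. It does not name the test behind them. Lists were counted at an FDR below 0.05. CPM in the text come from the counts and TMM-scaled totals, with a prior count of 2 for log2 levels. The floor for a group without counts was 3 counts in all its libraries, and groups with 1 to 3 counts are given as a ratio with an exact 95% interval. Because the reads carry no molecular identifiers, these limits cover counting error only.

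The members and 59 gene lists were chosen with earlier results of these data known. Named genes are the 15 largest increases and the 15 largest decreases past the cut-off (mean of 5 CPM or more, no overlap, numbered gene models and pseudogenes skipped), genes past it in every fit that left out a library, the 4 members with the lowest adjusted p in each direction of a list, the EMT genes the study measured by RT-qPCR, genes the study names, and the 10 genes each way that most set 28-2EV replicate 2 apart at 20 CPM or more. Fhl1, Cldn3, Gpr161, Gria3, Rtl8b, Xist and the pattern by chromosome were added after their values were seen. A few genes that these rules name are not reported here. Seed matches were searched in the longest 3′UTR of each gene in GENCODE M21 (GRCm38), which held 12520 of the genes tested, 11337 of them with a 3′UTR, and E-boxes in RefSeq promoters. These builds are older than that of the counts, so no coordinates are given.

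The alternatives tried were DESeq2 1.42.0, scaling by RLE or by library size, a filter at 1 CPM in 3 libraries or none, limma 3.58.1 with library weights or on log2(TPM + 1), testing against a fold of 2, the replicate number as a block, and leaving out each library. Scripts were tested on simulated data. Python 3.11.15, pandas 2.3.3, numpy 2.4.6, scipy 1.17.1 and matplotlib 3.10.9 were used. Replicates differed by more than counting error at 20 reads or more per gene and pair (chi-square per degree of freedom 28.7 to 145), so none was a repeat deposit. The ID8 libraries were not analysed here.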

Additional observations from a re-analysis of the deposited data

How the results depend on the processing

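The count of 96 genes past the cut-off stayed within 1.5 times under RLE scaling (89), library size scaling (75) and a filter at 1 CPM (91), and those scalings left the share of higher calls between 65.9 and 67.7%. It was 735 with DESeq2 (365 higher and 370 lower), 1002 with DESeq2 without 28-2EV replicate 2, 734 with library weights, 573 with no filter, 146 on log2(TPM + 1), 40 in a test against a fold change of 2, and 564 at an FDR under 0.05 with no limit on the fold change. Fits without 1 library gave 8 to 244 genes. The 134 list members at an FDR under 0.05, of 1148 tested, became 264 with DESeq2, 420 with library weights, 241 with no filter and 36 to 256 without 1 library. The cause of these differences was not tested. In the pairing check, deviations of same-numbered libraries correlated at 0.238, 0.134 and -0.343, and those of differently numbered libraries at -0.530 to 0.502. With 3 libraries a group this check cannot exclude a pairing. A replicate block gave 25 genes past the cut-off and 86 list members. Genes with 2 or more seed matches had a median log2 fold change 0.06 above genes with none. This difference was 0.0101 for 8-base sites, -0.0191 in the shortest tertile of 3′UTRs and 0.0140 in the middle tertile. It was 0.0400 in the longest tertile, which held 992 of the 1223 genes with 2 or more matches, and 0.0405 without 28-2EV replicate 2. CACCTG or CAGCTG stood in 44.4% of promoters of genes that rose, and 29.4% of those of genes tested. Of 135 named genes called, 135 kept the call under RLE scaling, library weights and without 28-2EV replicate 2, 126 on log2(TPM + 1), 97 with the block, and 53 without 28-2-200f replicate 2, with 0 reversed. Ptprn, chosen for its gap in 28-2EV replicate 2, had a log2 fold change of -0.81 (adjusted p = 0.603) and lay between -1.24 and 0.76 without 1 library, the highest being without 28-2EV replicate 2 (adjusted p = 0.0466). With 3 libraries a group and this spread, genes under 1 CPM rest on few counts.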
